A study of Macaca fascicularis with 6 samples.

Results

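The 10 genes described here, which act in chondrocyte hypertrophy and cartilage mineralization, are *RUNX2*, *RUNX3*, *MEF2C*, *IHH*, *PTH1R*, *COL10A1*, *ALPL*, *IBSP*, *SPP1* and *MGP*. Their reads were followed through the cells of a cartilage transplant study in cynomolgus monkeys. The genes were chosen by name, with earlier results of these data known, so counts of those called are descriptions. All 10 were among the 14020 genes listed in the matrix of pre-transplant, post-transplant, cyAC and cyFT cells (the 4-sample matrix), and 9 were among the 13950 genes listed in the matrix of cyiPSCs and pre-transplant cells, where *IHH* had no row.

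Chondrocytes of the growth plate, and some chondrocytes of injured or repairing cartilage, can pass from a proliferating into a hypertrophic state. RUNX2, RUNX3 and MEF2C are transcription factors that drive this step, IHH and the parathyroid hormone-related protein (PTHrP) receptor PTH1R form the feedback loop that paces it, and type X collagen is its best-known matrix product. Terminally hypertrophic chondrocytes and osteoblasts also make alkaline phosphatase, bone sialoprotein and osteopontin, which take part in or regulate mineral deposition, whereas matrix Gla protein restrains calcification of cartilage and vessels. Articular cartilage normally holds few hypertrophic cells above its calcified layer.

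The study compared 5 conditions by TAS-Seq, a bead-based single-cell RNA-seq method. cyiPSCs were cynomolgus induced pluripotent stem cells of 1 line that carries EGFP under a constitutive promoter, and pre-transplant cyiPS-Cart was the cartilage organoid made from the same EGFP line before surgery. Post-transplant cyiPS-Cart was taken from chondral defects of the knee 4 months after allogeneic transplantation into monkeys 3 to 4 years old. The label of that library gives a wild-type genotype, although the transplanted cells came from the EGFP line. cyAC was intact articular cartilage, and cyFT was the fibrous tissue that filled defects left empty, both from wild-type monkeys of the same age range at 4 months. The cells came from 3 libraries: cyiPSCs and pre-transplant cells shared one, cyAC and cyFT shared another, and post-transplant cells had their own. Library and condition therefore cannot be told apart for the post-transplant cells. The same holds where cyiPSCs or pre-transplant cells are set against cyAC or cyFT. Pooled cells were assigned to conditions by hashtag. The labels do not tie a hashtag to a condition, so each value of cyiPSCs, pre-transplant cells, cyAC and cyFT rests on the assignment in the authors' own code. How many animals contributed to each library is not given in the labels, and each condition was 1 sample.

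With 1 sample per condition no test between conditions was possible, and no p-value is given. Reads of all cells of a condition were summed for each gene and expressed as CPM, the reads of a gene in a total scaled to 1e+06. Exact 95% intervals are given in parentheses, Poisson for a level, conditional for a ratio of levels and Clopper-Pearson for a share of cells. Those for levels and ratios treat each read as independent, but TAS-Seq counts here are reads and not independent molecules. These intervals are therefore too narrow even for counting error, and none of the intervals covers differences between animals or samples. A gene was called higher or lower when the log2 ratio of CPM + 1 passed 2-fold and the gene had at least 5 CPM and reads in at least 5% of cells in either sample. Either sample sufficed for this filter, so a gene could pass it through the sample where it was higher alone. Where a sample had 0 reads, 3 reads were taken as the limit that a count of 0 allows.

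The 4-sample matrix held 320 cells of each condition, with a median of 58414 reads per cell before and 80336 after transplantation, 29699 in cyAC and 27500 in cyFT. The other matrix held 2500 cyiPSCs with a median of 143075 reads and 3527 pre-transplant cells with a median of 59249. The 2 sets of pre-transplant cells overlapped, with 300 of the 320 present in both, so their values are not independent. Libraries shared at most 4 cell barcode numbers. Because depth differed between samples, shares of cells were also computed after thinning each cell to 1 depth per matrix, 30967 reads for cyiPSCs and pre-transplant cells and 12191 reads in the 4-sample matrix.

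The chondrocyte label was checked with *COL2A1*, *ACAN*, *SOX9*, *COL9A1*, *COL11A1* and *MATN1*. At least 3 of them had reads in 98.9% to 99.4% of the cells of cyAC and of cyiPS-Cart before and after surgery, in 92.5% of cyFT cells and in 1.56% of cyiPSCs. Summed fibroblast markers were higher in cyFT (51893 CPM) than in cyAC (15864 CPM), and higher still in post-transplant cells (78545 CPM), and before transplantation they summed to 23526 CPM in the 4-sample matrix. At least 3 of these markers had reads in 98.75% of post-transplant, 93.1% of pre-transplant, 90.6% of cyFT and 59.1% of cyAC cells. The list thus did not set the cells of cyFT apart from those of cyiPS-Cart. *COL1A1* reads alone, without *COL2A1* reads, were found in 53.1% of cyFT cells and in 2.19% to 5.94% of cells of the other samples in that matrix. Summed macrophage and pan-immune markers reached 653 and 195 CPM in cyFT and no more than 23.8 CPM in the other samples, with the pan-immune list at 1.69 CPM before and 22.5 CPM after transplantation, and endothelial markers did not exceed 20.3 CPM in any. Mural markers lay between 35.1 and 121 CPM. Osteoblast markers were low in every sample, at 8.41 to 54.3 CPM, and *SP7*, the defining transcription factor of osteoblasts, was at 0 in pre-transplant cells of the 4-sample matrix, post-transplant cells and cyAC and had 1 read in cyFT. Osteoclast markers ranged from 9.86 CPM in cyiPSCs to 583 CPM in cyFT, with *ACP5* at 0 in cyAC and in cyiPS-Cart before and after surgery. Pluripotency markers stood at 684 CPM in cyiPSCs and at 1.24 to 14.1 CPM elsewhere.

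**Figure D1:**
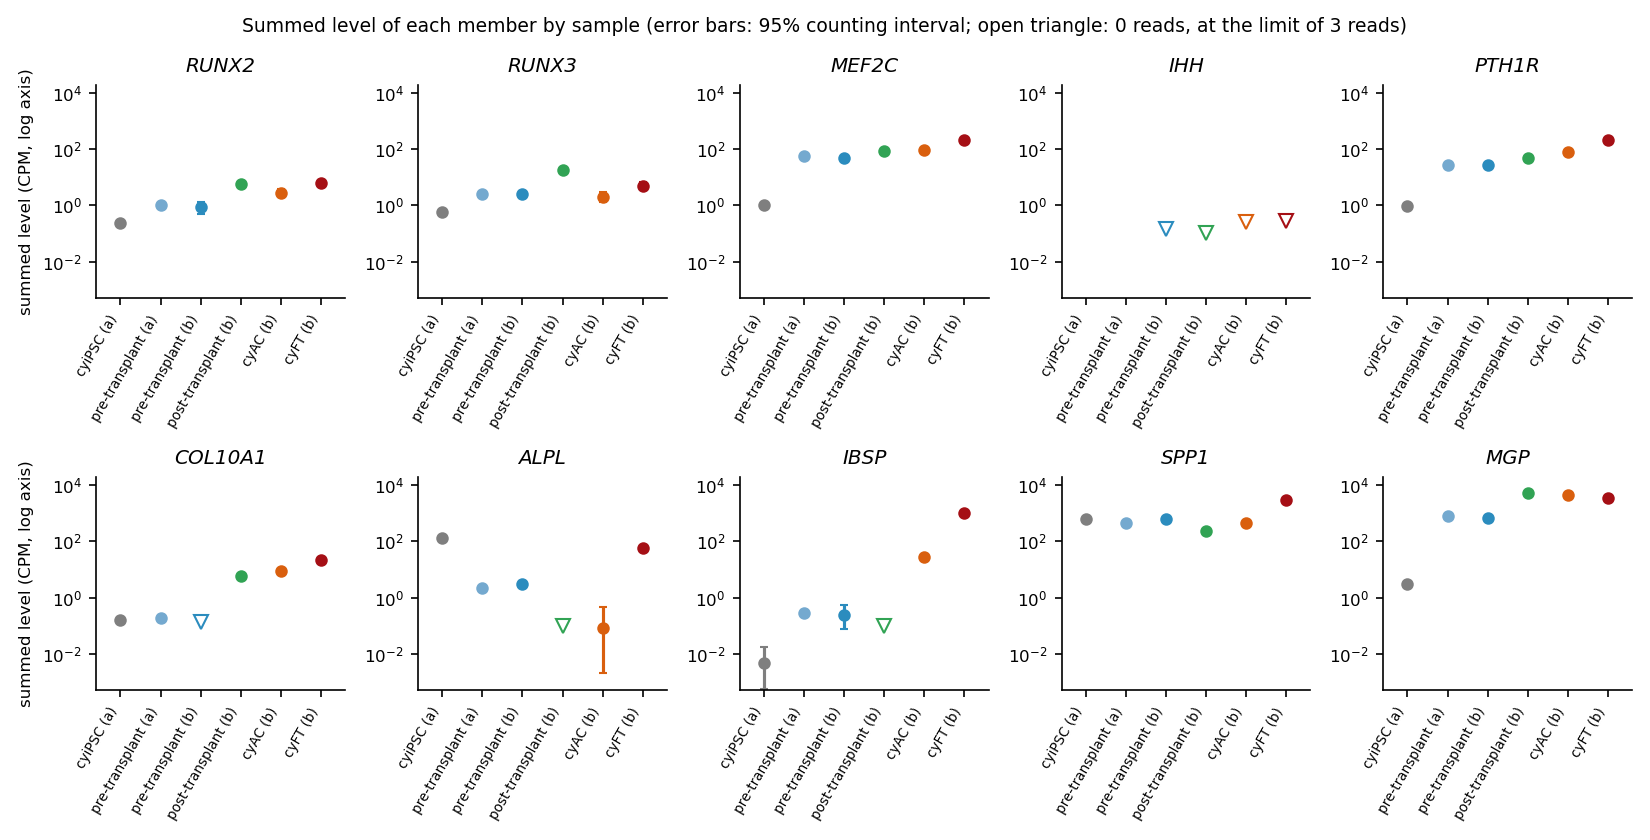
Summed level of each gene in each sample, on a logarithmic CPM axis. (a) marks the matrix of cyiPSCs and pre-transplant cells and (b) the 4-sample matrix, bars are 95% counting intervals, and an open triangle stands at the limit of 3 reads where a gene had none. *IBSP* has no read in post-transplant cells, 0.00481 CPM in cyiPSCs, from 2 reads, and 1042 CPM in cyFT, and *MGP* is lowest in cyiPSCs at 2.96 CPM.

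In the step from cyiPSCs to pre-transplant cartilage, 5 of the 9 listed genes passed the filter, of which *MEF2C*, *PTH1R* and *MGP* were called higher and *ALPL* lower. Among all 9583 genes tested, 16.3% were called higher and 37.8% lower. Below the filter were *RUNX2*, *RUNX3*, *COL10A1* and *IBSP*, with ratios of 4.66 (3.67 to 5.96), 4.37 (3.75 to 5.10), 1.102 (0.737 to 1.63) and 57.9 (15.4 to 488), the last from 67 reads against 2. One cell held 73.1% of the 67 reads, without which the level was 0.0749 CPM. From pre- to post-transplant cyiPS-Cart, 6 of 10 passed the filter and *IHH*, *COL10A1*, *ALPL* and *IBSP* did not. *RUNX2*, *RUNX3* and *MGP* were called higher and *SPP1* lower, against 8.99% higher and 18.3% lower among all 8684 genes tested. The *SPP1* call was lost when the 3 cells with most reads were left out and when the larger set of pre-transplant cells was used. The *RUNX2* call was lost with a pseudocount of 10 CPM and, with a log2 ratio of 2.00 but too few reads for the filter, without the top 3 cells. Summed fibroblast markers, all 6 with reads in both samples, moved from 23526 to 78545 CPM across the same step, and their part in these calls was not tested. Cells with *COL1A1* reads went the other way, from 18.1% to 14.7% with *COL2A1* reads as well and from 5.94% to 2.19% without.

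Between cyFT and cyAC, 8 of 10 passed the filter, and *MEF2C*, *ALPL*, *IBSP*, *SPP1* and *PTH1R* were called higher in cyFT. The *ALPL* call was lost without the top 3 cells, which left the gene below the filter. None was called lower, and 11.2% of all 8567 genes tested were called higher and 4.16% lower. Against cyAC, post-transplant cells had 6 genes past the filter, and *RUNX3* alone was called, as higher, with 10.7% of 8544 genes called higher and 15.5% lower. Against cyFT, *RUNX3* was called higher and *MEF2C*, *ALPL*, *IBSP*, *SPP1* and *PTH1R* lower among the 8 genes past the filter, with 6.81% of 8731 genes called higher and 20.8% lower. *RUNX3* missed the call there with a pseudocount of 10 CPM, and *ALPL* without the top 3 cells. These comparisons share samples and are not independent. In those that involve cyFT, *ALPL* and *IBSP* passed the filter through cyFT alone.

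The direction of calls over all genes depended on the scaling. The median log2 ratio of all genes tested was -0.62 for pre-transplant cells over cyiPSCs, -0.23 for post- over pre-transplant, 0.18 for cyFT over cyAC, -0.07 for post-transplant over cyAC and -0.27 for post-transplant over cyFT. Scaling by the trimmed mean of M-values (TMM) brought these to 0.06, -0.00277, 0.00357, 0.05 and 0.02. The share of all calls that were higher moved with it from 30.1% to 56.9%, from 32.97% to 48.8%, from 72.9% to 59.0% and from 24.7% to 44.6% in the comparisons other than post-transplant over cyAC, where it moved from 40.9% to 49.2%. Under TMM the members called higher after transplantation were 5, with *MEF2C* and *PTH1R* added, beside 1084 of all 8707 genes tested. *MEF2C* fell just short of 2-fold under TMM between cyFT and cyAC, at a log2 ratio of 0.99, and between post-transplant cells and cyFT, at -0.99.

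*RUNX2*, the master regulator of osteoblasts and of chondrocyte hypertrophy, had 0.229 CPM in cyiPSCs, 1.07 and 0.845 CPM in the larger and smaller sets of pre-transplant cells, 5.86 CPM after transplantation, 2.79 CPM in cyAC and 6.13 CPM in cyFT. Post-transplant cells and cyFT thus stood above the rest, and the interval of their own ratio, 0.956 (0.718 to 1.28), included 1. It was 6.93-fold higher (4.26 to 11.97) after than before transplantation, with reads in 20 cells against 7. Reads of *RUNX2* were present in 1.92% of cyiPSCs, where the gene is not expected, and in 2.19% of pre-transplant, 6.25% of post-transplant, 2.81% of cyAC and 5.94% of cyFT cells. At equal depth in the 4-sample matrix the share was 3.75% after transplantation, 0.974% in cyAC and 3.82% in cyFT. A single cell held 55.6% of the pre-transplant and 45.5% of the cyAC reads. Without the top cell of each sample the ratio of post- over pre-transplant cells was 13.5, and those of cyFT and of post-transplant cells over cyAC, 2.20 and 2.10 with all cells and not called, were 3.32 and 3.34 and passed the call.

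*RUNX3*, which acts together with RUNX2 in chondrocyte maturation and is also a transcription factor of T cells and myeloid cells, had 0.566 CPM in cyiPSCs, 2.47 and 2.44 CPM before transplantation, 17.6 CPM after it, 2.03 CPM in cyAC and 5.05 CPM in cyFT. Post-transplant cells were the highest sample. The level was 7.19-fold higher (5.40 to 9.75) than before transplantation, 8.65-fold higher (5.75 to 13.6) than in cyAC and 3.47-fold higher (2.63 to 4.66) than in cyFT, and 45 of 320 post-transplant cells (14.1%, 10.4 to 18.4) carried reads, with 1 to 63 reads in a cell. Pan-immune markers moved in the same direction across transplantation, from 1.69 to 22.5 CPM, almost wholly through *CD52* (1.41 to 21.3 CPM, in 11 and 52 cells), with *PTPRC* at 0 before and *CORO1A* at 0 after it, and their part in the *RUNX3* level was not tested. Macrophage markers stood at 4.13 and 4.86 CPM. Of the post-transplant reads, 87.6% came from cells with *COL2A1* reads alone, and 12.02% from 1 cell without reads of either collagen. In cyFT the distribution was different: 57.1% of *RUNX3* reads came from 33 cells without reads of either collagen. The 16 cyFT cells with at least 3 macrophage or pan-immune markers held 53.6% of the *RUNX3* reads. The log2 ratio of cyFT over cyAC was 0.998, just inside 2-fold, and it was 0.44 among cells with *COL2A1* reads alone.

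*MEF2C*, a MADS-box transcription factor upstream of *RUNX2* and *COL10A1* in the growth plate, had 1.01 CPM in cyiPSCs, 55.8 and 46.7 CPM before transplantation, 88.2 CPM after it, 96.0 CPM in cyAC and 217 CPM in cyFT. cyFT was the highest sample and cyiPSCs the lowest. Pre-transplant cells were 55.2-fold higher (50.0 to 60.9) than cyiPSCs. Post-transplant cells were 1.89-fold higher (1.75 to 2.03) than pre-transplant cells and 1.09-fold lower (1.01 to 1.17) than cyAC, and cyFT was 2.26-fold higher (2.11 to 2.43) than cyAC. Reads were in 6.08% of cyiPSCs and in 41.3% to 48.8% of cells in each of the 4 other samples, so the samples differed less in the share of cells than in the level. After thinning, the share ran from 24.8% before transplantation through 30.8% in cyAC and 34.1% after transplantation to 44.4% in cyFT. The cyFT over cyAC ratio was under 2-fold when the mean of per-cell CPM replaced the sum (log2 ratio 0.93).

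*IHH*, the secreted ligand of prehypertrophic chondrocytes, was listed at 0 in all 4 samples of the 4-sample matrix. With 320 cells per sample the limit that a count of 0 allows was 0.938% for cells holding an *IHH* read, which does not limit the cells expressing the gene, and with 11087496 to 29855420 reads per sample the limit on the level was 0.1005 to 0.271 CPM.

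*PTH1R*, the receptor that receives PTHrP, had 0.987 CPM in cyiPSCs, 26.7 and 27.4 CPM before transplantation, 50.5 CPM after it, 77.9 CPM in cyAC and 204 CPM in cyFT. The order of the samples was that of *MEF2C*. Pre-transplant cells were 27.0-fold higher (24.4 to 29.9) than cyiPSCs, and the ratio of post- over pre-transplant cells was 1.84 (1.67 to 2.03), short of the call. cyFT was 2.61-fold higher (2.42 to 2.83) than cyAC and 4.03-fold higher (3.78 to 4.31) than post-transplant cells. The share of cells with reads was 4.68% in cyiPSCs, 31.3% before and 30.3% after transplantation, 23.8% in cyAC and 39.7% in cyFT. After thinning, 16.6% to 18.8% of pre-transplant, cyAC and post-transplant cells but 38.2% of cyFT cells kept a read.

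Other genes of the hedgehog and PTHrP axis were listed for 6 of 7 names. None was called higher in pre-transplant cells over cyiPSCs, where 3 passed the filter (all genes, 16.3% higher and 37.8% lower), and *GLI1*, a transcription factor and readout of hedgehog signalling, was 13.5-fold lower. After transplantation all 4 genes past the filter were called higher than before (all genes, 8.99%), with a median log2 ratio of 3.17 against -0.23 over all genes. *PTHLH*, which encodes PTHrP, went from 7.98 to 136 CPM, 17.0-fold higher. *PTCH1* (16.5-fold) and *HHIP* (14.3-fold), hedgehog-binding proteins that are themselves hedgehog targets, and the signal transducer *SMO* (2.41-fold) were the others. *PTHLH* after transplantation was also 3.87-fold above cyAC (35.2 CPM) and 4.36-fold above cyFT (31.2 CPM), whereas *GLI1*, at 3.45 CPM, was 3.73-fold below cyAC and 3.48-fold below cyFT. Post-transplant cells were further 2.12-fold higher in *SMO* and 2.52-fold lower in *HHIP* than cyFT. These calls made 1 higher and 1 lower of 5 genes past the filter against cyAC, beside 10.7% and 15.5% of all genes, and 2 higher and 2 lower of 5 against cyFT, beside 6.81% and 20.8%. Between cyFT and cyAC *PTCH1* alone was called of 5, as 2.502-fold lower (all genes, 4.16%).

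*COL10A1* encodes type X collagen of the hypertrophic zone. It had 0.166 CPM in cyiPSCs, 0.183 CPM in the 3527 pre-transplant cells, 0 reads in the 320 pre-transplant cells (at most 0.141 CPM), 5.73 CPM (4.90 to 6.65) after transplantation, 8.79 CPM (7.19 to 10.7) in cyAC and 22.0 CPM (19.3 to 24.95) in cyFT. The tissues taken from the joint were the high samples, and their libraries were not that of cyiPSCs and pre-transplant cells. Reads were in 14 of 320 cells after transplantation (4.38%, 2.41 to 7.23), 13 in cyAC (4.06%, 2.18 to 6.85) and 14 in cyFT, against 0.56% of cyiPSCs and 0.284% of pre-transplant cells, both of which were read more deeply than cyAC. At equal depth the shares were 2.19% after transplantation, 2.92% in cyAC and 3.47% in cyFT. Because fewer than 5% of cells had reads, *COL10A1* passed the filter in none of the comparisons between whole samples.

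Post-transplant cells were at least 40.7-fold higher in *COL10A1* than the 320 pre-transplant cells, and 31.3-fold higher (22.4 to 44.6) than the 3527. Of the 171 post-transplant reads, 3 cells held 58.5%, and without the top 3 cells of each sample the level was 2.402 CPM, at least 17.0-fold higher than in the 320 cells and 28.8-fold higher (17.4 to 50.0) than in the 3527. They were 1.54-fold lower (1.19 to 1.97) than cyAC and 3.84-fold lower (3.15 to 4.70) than cyFT. The excess of cyFT over cyAC, 2.502-fold (1.98 to 3.18), rested on few cells, since 1 cell held 40.2% and 3 cells held 75.8% of the cyFT reads. Without the top cell cyFT had 13.3 CPM, and without the top 3 cells of both samples the log2 ratio was 0.25. Of the cyFT reads, 84.0% came from cells with *COL2A1* reads alone, and all 104 cyAC reads did.

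**Figure D2:**
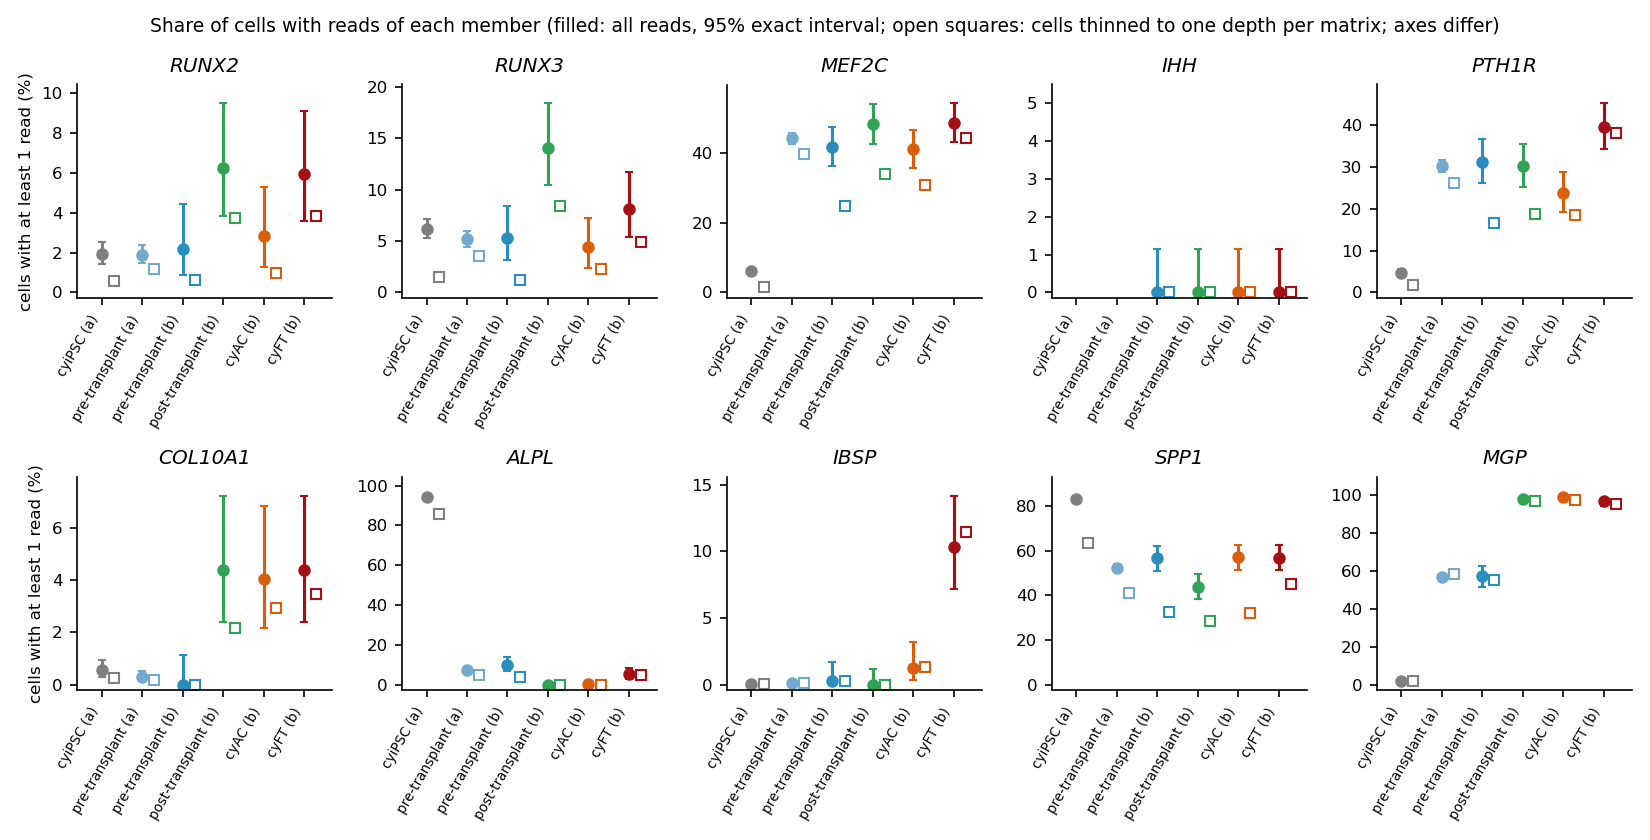
Percentage of cells of each sample in which a gene had reads. Filled points use all reads and have exact 95% intervals, open squares are shares after thinning, and the axes differ between panels. *COL10A1* lies near 4% in post-transplant, cyAC and cyFT cells, and *IBSP* reaches 10.3% in cyFT.

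Genes of the hypertrophic zone matrix and its proteases were listed for 10 of 12 names. All 7 past the filter were higher in pre-transplant cells than in cyiPSCs (all genes, 16.3%), among them *SPARC* (433-fold), *MATN3* and *CHI3L1* (272-fold each) and *MMP13*, the collagenase of terminal hypertrophic cartilage (5.29-fold). In cyiPSCs no cell with reads had fewer than 318 reads of *SPARC*, 10 of *CHI3L1* or 7 of *MATN3*, and these genes had reads in 37, 72 and 121 of 2500 cells. The 3 folds may thus be against a level that the removal of low counts reduced, which was not tested. After transplantation 4 of 7 were called lower than before (all genes, 18.3%), namely *CHI3L1* (18.3-fold), *EPYC* (3.68-fold), *MMP13* (3.54-fold) and *MATN3* (2.51-fold), and the crosslinking enzyme *TGM2* (2.74-fold) and *S100A1* (2.07-fold) were higher. *MMP13* is a late product of hypertrophy in the growth plate. In cyFT, *MATN3* (4.13-fold) and *CHI3L1* (3.17-fold) were lower than in cyAC (all genes, 4.16%) and none of 5 was higher. Post-transplant cells had higher *TGM2* and *EPYC* than cyAC (2.84-fold and 7.87-fold) and lower *CHI3L1* (5.95-fold) among 6 genes (all genes, 10.7% higher and 15.5% lower), and higher *TGM2* (4.29-fold), *EPYC* (6.49-fold) and *MATN3* (2.84-fold) than cyFT among 6 genes (all genes, 6.81% higher). The lowest count in a post-transplant cell with reads was 9 for *CHI3L1*, which 13 cells carried, and 7 for *MATN3*, whereas cyAC and cyFT had cells with 1 read of each, so these folds compare libraries in which low counts remained to different extents.

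Among the regulators and repressors of hypertrophy, listed for 11 of 12 names with cyiPSCs and for all 12 in the 4-sample matrix, 3 of 8 were higher and 2 lower in pre-transplant cells than in cyiPSCs (all genes, 16.3% and 37.8%). The higher ones were *SOX9*, the chondrocyte transcription factor (38.1-fold), the growth factor *BMP6* (28.3-fold) and the zinc finger repressor *ZBTB20* (13.6-fold), and the homeobox genes *DLX5* (14.8-fold) and *DLX6* (110-fold) were lower. After transplantation *DLX5* (31.6-fold) and *FGFR3*, a receptor that slows growth plate chondrocytes (6.24-fold), were higher and *BMP6* (4.37-fold) lower among 7 (all genes, 8.99% and 18.3%). cyFT had more *BMP6* (4.55-fold) and more of the histone deacetylase *HDAC4*, a repressor of MEF2C and RUNX2 activity (3.85-fold), than cyAC, with none of 8 lower (all genes, 11.2% higher and 4.16% lower). *FGFR3* after transplantation was 3.39-fold above cyAC and 4.13-fold above cyFT. Against cyAC, *ZBTB20* and *FOXO1* were 3.52-fold and 2.11-fold lower, the other calls of 7 genes (all genes, 10.7% higher and 15.5% lower). Against cyFT, *DLX5* was 2.74-fold higher, and *BMP6* (4.93-fold), *SIK3* (2.25-fold) and *ZBTB20* (2.08-fold) were lower, the other calls of 8 (all genes, 6.81% higher and 20.8% lower).

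*ALPL*, tissue-nonspecific alkaline phosphatase, releases phosphate for mineral and is also an established surface marker of pluripotent cells. Its level was 128 CPM (127 to 129) in cyiPSCs, 2.21 and 3.15 CPM before transplantation, 0 after it (at most 0.1005 CPM), 0.0846 CPM in cyAC, from 1 read, and 56.6 CPM (52.3 to 61.3) in cyFT. cyiPSCs and cyFT were the only high samples, and they differed in how the reads were spread: 94.0% of cyiPSCs carried *ALPL*, but 17 of 320 cyFT cells (5.31%, 3.13 to 8.37) did. One cyFT cell held 42.8% of the reads, without which the level was 32.9 CPM. The mean of per-cell CPM in cyFT was 21.2. *ALPL* was 57.7-fold lower (53.0 to 63.0) in pre-transplant cells than in cyiPSCs. In this shared library pre-transplant cells had 1.73% (1.59 to 1.89) of the *ALPL* level of cyiPSCs, and 2.07% (2.00 to 2.14) of the summed level of 6 pluripotency markers. Single markers ranged from 1.81% for *SOX2* to 18.2% for *DPPA4*. The part of carried-over cyiPSC reads in the *ALPL* reads of pre-transplant cells was not tested. The ratio of cyFT over cyAC was 670 (120 to 26497), with a log2 ratio of 5.73 that was 4.45 without the top 3 cells of both samples, and post-transplant cells were at least 564-fold lower than cyFT (at least 327-fold without the top cell), at least 31.3-fold lower than the 320 pre-transplant cells and at least 22.0-fold lower than the 3527.

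*IBSP*, bone sialoprotein, binds hydroxyapatite and is made by osteoblasts and by hypertrophic chondrocytes. It had 2 reads in all cyiPSCs, 67 reads in 4 of 3527 pre-transplant cells (0.279 CPM), 5 reads in 1 of the 320 pre-transplant cells, 0 reads after transplantation, 339 reads in 4 cyAC cells (28.7 CPM, 25.7 to 31.9) and 11551 reads in 33 cyFT cells (1042 CPM, 1023 to 1061). cyFT stood far above every other sample. Its cells with reads made up 10.3% (7.21 to 14.2), held 30 to 1834 reads each with a median of 208, and the top cell held 15.9% of the reads, so the level was not carried by 1 cell. The mean of per-cell CPM was lower than the summed level, at 626 in cyFT and 24.6 in cyAC. In cyAC 1 cell held 54.0% and 3 cells held 93.5% of the 339 reads. No cell with reads had under 22 in cyAC or under 30 in cyFT, and whether lower counts had been set to 0 in this library was not tested, so both shares of cells are of cells with reads left in the deposited matrix. The ratio of cyFT over cyAC was 36.3 (32.6 to 40.6), and it was 67.1 (57.3 to 79.1) without the top cell of each sample, with cyAC at 13.3 CPM. Post-transplant cells were at least 10368-fold lower than cyFT and at least 285-fold lower than cyAC (at least 132-fold without the top cyAC cell), where the gene missed the filter because 1.25% of cyAC cells had reads.

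*SPP1*, osteopontin, is a phosphoprotein of bone, calcified cartilage and macrophages that binds mineral. It stood at 623 CPM in cyiPSCs, 460 and 603 CPM before transplantation, 238 CPM after it, 464 CPM in cyAC and 2981 CPM in cyFT. cyFT was the highest sample and post-transplant cells the lowest. Reads were in 56.6% of the 320 pre-transplant cells, 57.2% of cyAC, 56.9% of cyFT and 43.8% of post-transplant cells. At equal depth the shares were 32.6%, 32.1%, 45.1% and 28.4%, with cyFT apart from the rest, whereas at least 10 reads were in 15%, 10%, 23.1% and 25.3% of the unthinned cells. Cells with reads held a median of 2 to 4.5 of them in pre-transplant cells, cyAC and cyFT and 12.5 after transplantation. Among cells without reads of either collagen, 13 of 25 in cyAC and 17 of 33 in cyFT had *SPP1* reads, 29 and 43 reads in all. By collagen class the cyFT share was 84.5% with *COL2A1* alone, 66.7% with both, 42.4% with *COL1A1* alone and 51.5% with neither, at median depths of 47803, 32528, 21830 and 26220 reads. One cyFT cell with 17428 reads held 52.7% of the sample's *SPP1* reads, without which the level was 1417 CPM. cyFT was 6.43-fold higher (6.25 to 6.62) than cyAC, or 3.47-fold without the top cell of each sample, and without the top 3 cells of both samples the log2 ratio went from 2.68 to 1.67. Post-transplant cells were 12.5-fold lower (12.2 to 12.9) than cyFT (6.73-fold without the top cell of each) and 1.95-fold lower (1.88 to 2.02) than cyAC, the latter short of the call. They were 2.53-fold lower (2.46 to 2.61) than the 320 pre-transplant cells, in which 3 cells held 53.3% of the reads. Without the top 3 cells of each sample the log2 ratio was -0.76, and against the 3527 pre-transplant cells it was -0.95 with all cells and passed the call, at 2.05-fold lower, without the top cell of each. The ratio of pre-transplant cells to cyiPSCs was 1.36-fold lower and turned to a log2 ratio of 0.23 under TMM.

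*MGP*, matrix Gla protein, inhibits calcification. It had 2.96 CPM in cyiPSCs, 792 and 688 CPM before transplantation, 5092 CPM after it, 4594 CPM in cyAC and 3618 CPM in cyFT. The 3 tissues taken from the joint were high and differed among themselves by less than 1.5-fold, with ratios of 1.11 for post-transplant over cyAC, 1.41 for post-transplant over cyFT and 1.27-fold lower for cyFT over cyAC. Joint origin and library cannot be told apart here. Reads were in 2.20% of cyiPSCs, 57.2% of the 320 pre-transplant cells and 96.9% to 99.1% of the cells of the other 3 samples. *MGP* was 268-fold higher (253 to 284) in pre-transplant cells than in cyiPSCs and 7.40-fold higher (7.27 to 7.52) after than before transplantation. In cyiPSCs and both pre-transplant sets no cell with reads had fewer than 10, which the removal of low counts leaves. Post-transplant, cyAC and cyFT cells kept counts down to 1 read. The cyiPSC and pre-transplant shares are thus shares after that step, and the 268-fold and 7.40-fold ratios are against levels after it. Within cyFT, cells with *COL2A1* reads alone had 2186 CPM and cells with *COL1A1* reads alone had 4681 CPM, and the latter held 50.5% of the *MGP* reads.

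Genes of mineral deposition and its inhibitors were listed for 14 of 15 names. In pre-transplant cells over cyiPSCs 7 of 9 were higher (all genes, 16.3%), namely *ANKH*, which exports the mineral inhibitor pyrophosphate or its precursor (46.7-fold), *NT5E* (36.9-fold), *ENPP1*, which makes pyrophosphate (14.3-fold), *ANXA5* (5.54-fold), *SLC20A1* (3.64-fold), *GGCX*, the carboxylase that activates Gla proteins (2.81-fold), and *SLC20A2* (2.48-fold). *BGLAP*, osteocalcin, was 7.89-fold lower. After transplantation *PHOSPHO1*, a phosphatase of matrix vesicles, was 5.31-fold higher and *ENPP1* (3.42-fold), *ANXA5* (2.75-fold) and *GGCX* (2.18-fold) lower among 9 (all genes, 8.99% higher and 18.3% lower). cyFT had more *PHOSPHO1* (77.8 against 23.4 CPM, 3.32-fold) and *BGLAP* (18.0 against 8.12 CPM, 2.22-fold) than cyAC, with none of 11 lower (all genes, 11.2% higher and 4.16% lower). Post-transplant cells had less *PHEX*, an endopeptidase of osteocytes, and less *ANXA5* than cyAC (32.3-fold and 2.46-fold; all genes lower, 15.5%). They had less *PHEX* (54.0-fold), *PHOSPHO1* (5.57-fold), *BGLAP* (3.26-fold) and *ANXA5* (2.92-fold) than cyFT (all genes lower, 20.8%), with none of 11 higher in either comparison. The median log2 ratio of the list was -0.55 against cyAC and -0.58 against cyFT, beside -0.07 and -0.27 over all genes. Across the 4 lists, 4 genes were higher and 3 lower of 29 in cyFT over cyAC, beside 11.2% higher and 4.16% lower of all genes. After transplantation 9 were higher and 8 lower of 27, beside 8.99% and 18.3% of all genes.

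Because cyFT held fewer cells with *COL2A1* reads than cyAC, both samples were also compared within cells that had *COL2A1* but no *COL1A1* reads, 84 cells of cyFT and 276 of cyAC, a comparison added after the levels had been seen. In these cells 7 of the 8 genes past the filter were called higher in cyFT and none lower, beside 8.75% higher and 8.15% lower of 8496 genes tested. Some of the 8 passed the filter through cyFT alone, the sample where they were higher. These were *COL10A1* (reads in 13.1% against 4.71% of cells), *RUNX2* (13.1% against 2.90%), *ALPL* (17.9% against 0.362%) and *IBSP* (39.3% against 1.45%). *IBSP* had 2578 against 32.8 CPM (78.5-fold, 70.4 to 87.7), *SPP1* 6962 against 522 CPM (13.3-fold, 13.0 to 13.7) and *ALPL* 626 reads against 1 (1442-fold, 258 to 57035). *MEF2C* had 382 against 96.0 CPM (3.98-fold, 3.68 to 4.31), *PTH1R* 376 against 86.0 CPM (4.37-fold, 4.02 to 4.74), *COL10A1* 45.8 against 10.1 CPM (4.54-fold, 3.57 to 5.80) and *RUNX2* 8.93 against 3.10 CPM (2.88-fold, 1.76 to 4.73). *MGP* was 1.85-fold lower (1.81 to 1.89), short of the call. Single cells weighed on several of these ratios. In cyFT 1 cell held 98 and 3 cells held 168 of the 205 *COL10A1* reads of the class, and the ratio was 3.09 (2.29 to 4.17) without the top cell and 1.72 (1.096 to 2.68) without the top 3 cells of each sample, which ended the call. One cell held 17428 of the 31197 *SPP1* reads, and without the top cell of each sample the ratio was 6.79 (6.57 to 7.02). That of *IBSP* was then 148 (126 to 175), *ALPL* was at least 283-fold higher, and *MGP* was called lower, at 2.12-fold. Without the top 3 cells the *RUNX2* call was also lost, through the filter, which left *MEF2C*, *ALPL*, *IBSP*, *SPP1* and *PTH1R* called higher. Leaving out 3 of 84 cyFT cells against 3 of 276 cyAC cells for each gene also moved the median log2 ratio of all genes tested from -0.02 to -0.34. The class held 26.3% of cyFT cells but 86.3% of cyAC cells, and all cyFT reads of *IBSP*, 99.7% of those of *ALPL* and 94.4% of those of *SPP1*. cyFT cells of this class were read more deeply, with a median of 47803 reads against 30769 in cyAC. No cell with *COL1A1* reads had fewer than 76 in cyAC and 81 in cyFT. Absence of *COL1A1* therefore means absence in the deposited matrix, and whether the authors' removal of low counts had set lower ones to 0 was not tested.

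**Figure D3:**
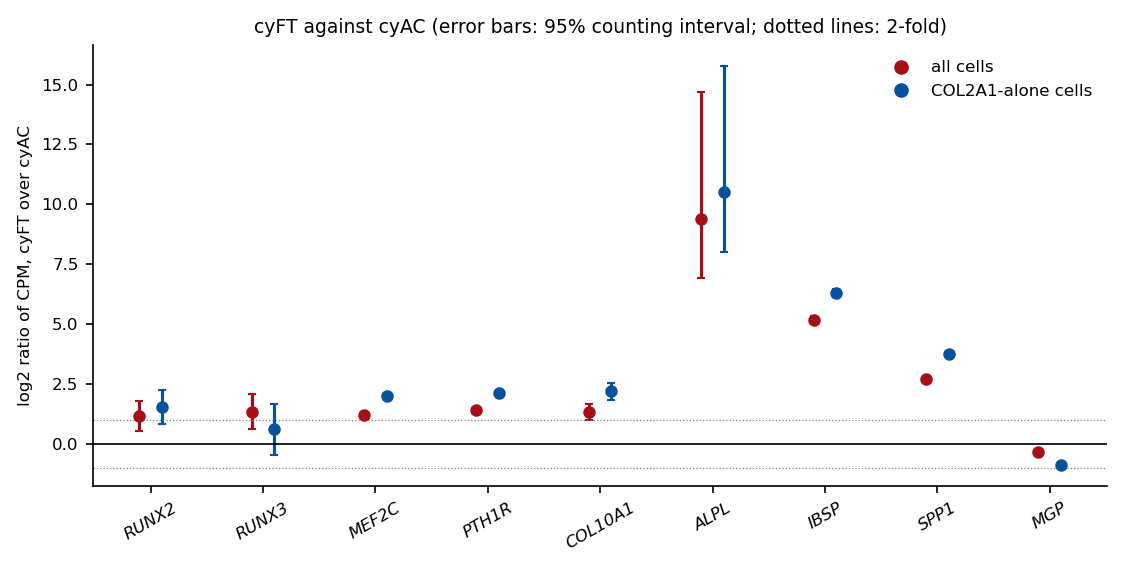
log2 ratio of CPM in cyFT over cyAC for the 9 genes with reads, in all cells (red) and in cells with *COL2A1* but no *COL1A1* reads (blue). Bars are 95% counting intervals and dotted lines mark 2-fold. *IBSP* lies at 36.3-fold in all cells and 78.5-fold in the chosen cells, and *MGP* lies below 1 in both.

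Other genes of the pathways were called in the same cells. *PHOSPHO1* (7.16-fold), *BGLAP* (3.75-fold) and *PHEX* (3.43-fold) were higher in cyFT and *GGCX* (2.22-fold) lower among 11 genes of mineral deposition, beside 8.75% higher and 8.15% lower of all genes, and *BMP6* (5.00-fold) and the transcription factor *FOXA2* (4.80-fold), an activator of hypertrophic genes, were higher among 8 regulators (all genes, 8.75%). Of 6 matrix and protease genes, *MMP13* was higher, at 5.80 against 0.0969 CPM, which is 1 read in cyAC (ratio 59.9, 9.84 to 2455), and *CHI3L1* (4.69-fold) and *MATN3* (2.03-fold) were lower (all genes, 8.75% and 8.15%). The *MMP13* value rested on few cyFT cells. It had 19 reads in 3 cells with *IBSP* reads, 78.9% of them in 1 cell, and 7 reads in 2 cells without *IBSP* reads. *PTHLH* was 3.15-fold lower and was the 1 call among 5 genes of the hedgehog and PTHrP axis (all genes lower, 8.15%).

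All 33 cyFT cells with *IBSP* reads had *COL2A1* reads and none had *COL1A1* reads. As the lowest count among them was 30, cells without *IBSP* are those without reads in the deposited matrix, and low counts may have been removed from them. These cells were singled out after their values were seen, so the following is a description without a test, and they are compared with the 51 other cyFT cells of the same collagen class and with the remaining 236 cells. Median depth was 51564, 41711 and 23216 reads per cell in the 3 sets. *SPP1* had 13194, 1334 and 281 CPM, with medians over cells of 883, 93.7 and 0 CPM, and the *IBSP* cells held 84.9% of the sample's *SPP1* reads, 62.1% of theirs being in 1 cell. *ALPL* was found in 15, 0 and 2 cells, and 99.7% of its reads lay in the *IBSP* cells. *MEF2C* was found in 30, 36 and 90 cells, at 553, 228 and 105 CPM, and *PTH1R* in 31, 30 and 66 cells, at 563, 207 and 86.9 CPM. The rarer members *COL10A1* (6, 5 and 3 cells, 78.5, 16.1 and 5.90 CPM) and *RUNX2* (7, 4 and 8 cells, 14.6, 3.82 and 4.24 CPM) were higher in the same cells, although 1 cell held 58.7% of the *COL10A1* reads there. *RUNX3* (3.29, 2.97 and 6.36 CPM) and *MGP* (2160, 2209 and 4589 CPM) did not separate the *IBSP* cells from the others of their collagen class.

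Beyond the members, the *IBSP* cells had more *PHOSPHO1* (276, 106 and 4.09 CPM), *PHEX* (130, 7.65 and 9.99 CPM), *BGLAP* (49.4, 20.4 and 7.11 CPM) and *FOXA2* (33.4, 0.849 and 0 CPM). The chondrocyte list summed to 64421, 58886 and 9798 CPM in the 3 sets and the fibroblast list to 8703, 10614 and 80504 CPM. *COL1A1* and *COL1A2* were at 0 in the *IBSP* cells. The osteoblast list summed to 193, 30.6 and 18.2 CPM, *SP7* was at 0 in both sets of the *COL2A1* class, *DMP1* was in 1 *IBSP* cell, and 1 of 33 cells had reads of at least 3 osteoblast markers. Osteoblast markers thus moved with *IBSP*, through *PHEX* and *BGLAP*, which are also in the mineral deposition list. Their part in the result was not tested. Osteoclast markers were lower in the *IBSP* cells (49.8, 129 and 916 CPM), with *ACP5* and *MMP9* at 0, and so were macrophage markers (10.8, 76.9 and 1066 CPM) and pan-immune markers (9.88, 34.4 and 311 CPM). Endothelial and mural lists came to 9.41 and 54.1 CPM in the *IBSP* cells, and pluripotency markers to 0. The 16 cyFT cells with immune markers held no read of *IBSP*, *ALPL*, *COL10A1* or *RUNX2*, 0.0817% of the *SPP1* reads and 4.82% of the *MEF2C* reads.

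**Figure D4:**
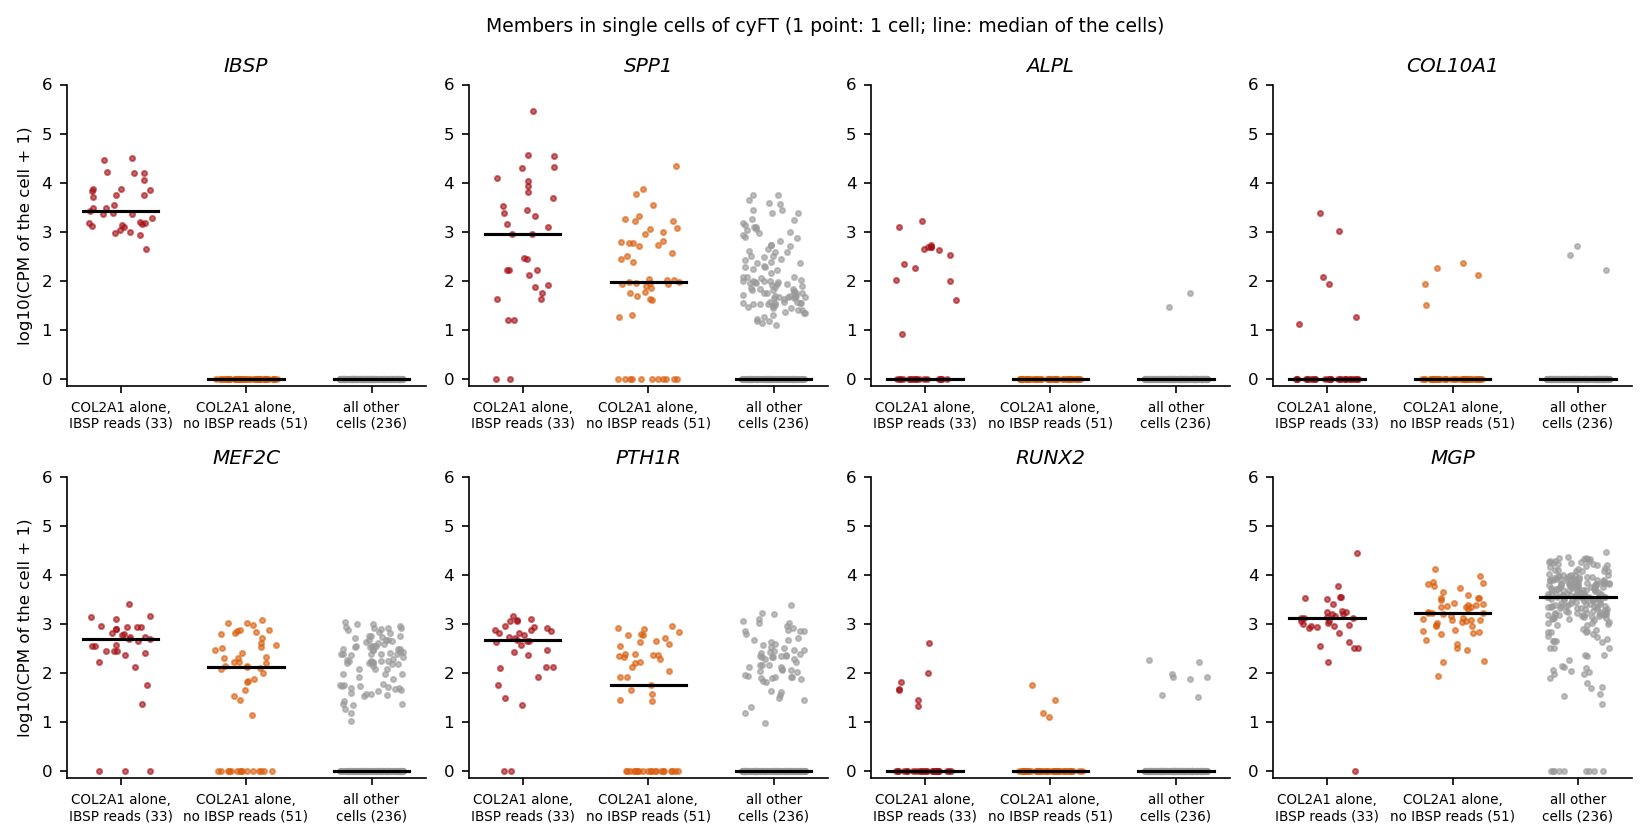
Levels of 8 genes in single cyFT cells, as log10 of CPM + 1, in the 33 cells with *COL2A1* alone and *IBSP* reads, the 51 cells with *COL2A1* alone and no *IBSP* reads and the 236 other cells. Each point is a cell and each line a median. *ALPL* is at 0 in all 51 cells of the middle set, and *MEF2C* and *PTH1R* have reads in 30 and 31 of the 33 *IBSP* cells.

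The 4 cyAC cells with *IBSP* reads also had *COL2A1* reads alone. *SPP1* and *MEF2C* reads were present in all 4 and *PTH1R* reads in 3, but *ALPL* reads in none. In cyFT, *IBSP* reads were in 15 of 17 *ALPL* cells (88.2%) and in 18 of 303 cells without *ALPL* (5.94%), and *PTH1R* reads were in 53.8% of *MEF2C* cells and in 26.2% of the others. *IBSP* reads were in 6 of 14 *COL10A1* cells and 27 of 306 others. Of the 13 cyAC cells with *COL10A1* reads, 12 had *SPP1* reads (92.3%, against 55.7% of the others), and none of the 14 post-transplant *COL10A1* cells had *IBSP* or *ALPL* reads, since that sample had none. These shares were not corrected for depth.

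Cells with reads of 2 or more members were the majority in every sample. They made up 81.3% (79.7 to 82.8) of cyiPSCs and 65.0% (63.4 to 66.6) of the 3527 pre-transplant cells, and in the 4-sample matrix 66.6% (61.1 to 71.7) before transplantation, 80.3% (75.5 to 84.5) after it, 75.9% (70.9 to 80.5) in cyAC and 77.8% (72.9 to 82.3) in cyFT. Of the 2033 cyiPSCs with 2 or more, 1968 had reads of both *ALPL* and *SPP1*. In post-transplant cells *MGP* was found with *MEF2C* in 153 cells, with *SPP1* in 138 and with *PTH1R* in 96. Without counting *MGP* the shares were 43.9% to 53.8% in the cartilage and fibrous tissue samples, and 81.2% in cyiPSCs. The order also depended on depth: after thinning, the shares were 40.4% before and 63.4% after transplantation, 59.4% in cyAC and 71.9% in cyFT.

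Cells with many members were found mainly in cyFT. Reads of 5 or more members were present in 35 cyFT cells (10.9%, 7.74 to 14.9), 10 post-transplant cells (3.13%, 1.51 to 5.67), 7 cyAC cells (2.19%, 0.884 to 4.45) and 5 of 320 pre-transplant cells (1.56%, 0.509 to 3.61), although cyFT was the most shallowly read of these. After thinning, 25 of 288 cyFT cells, 3 of 308 cyAC cells, 2 of 320 post-transplant cells and none of 319 pre-transplant cells had 5 or more. The most members in a cell were 8 in cyFT and 6 in each other sample of that matrix. A subset of 4 members, *COL10A1*, *ALPL*, *IBSP* and *RUNX2*, was also counted, which was not planned beforehand and leaves out *SPP1*. Reads of 2 or more of these occurred in 23 cyFT cells (7.19%, 4.61 to 10.6) and in 2 cyAC cells. No pre- or post-transplant cell of that matrix had them, for which the limit is 0.938%. These counts follow in part from levels given above. *ALPL* and *IBSP* had no read after transplantation, and *COL10A1* had none in the 320 pre-transplant cells. *IBSP* had reads in 33 cyFT cells and 4 cyAC cells. In the other matrix 63 cyiPSCs (2.52%) and 8 pre-transplant cells (0.227%) had 2 or more of the 4. The *IBSP* cells of cyFT carried a median of 5 members besides *IBSP* (3 to 7), their 51 neighbours in collagen class 3 (1 to 5) and the other cells 2 (0 to 5). At equal depth these medians were 4, 3 and 2. Doublet calling marked none of the *IBSP* cells.

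**Figure D5:**
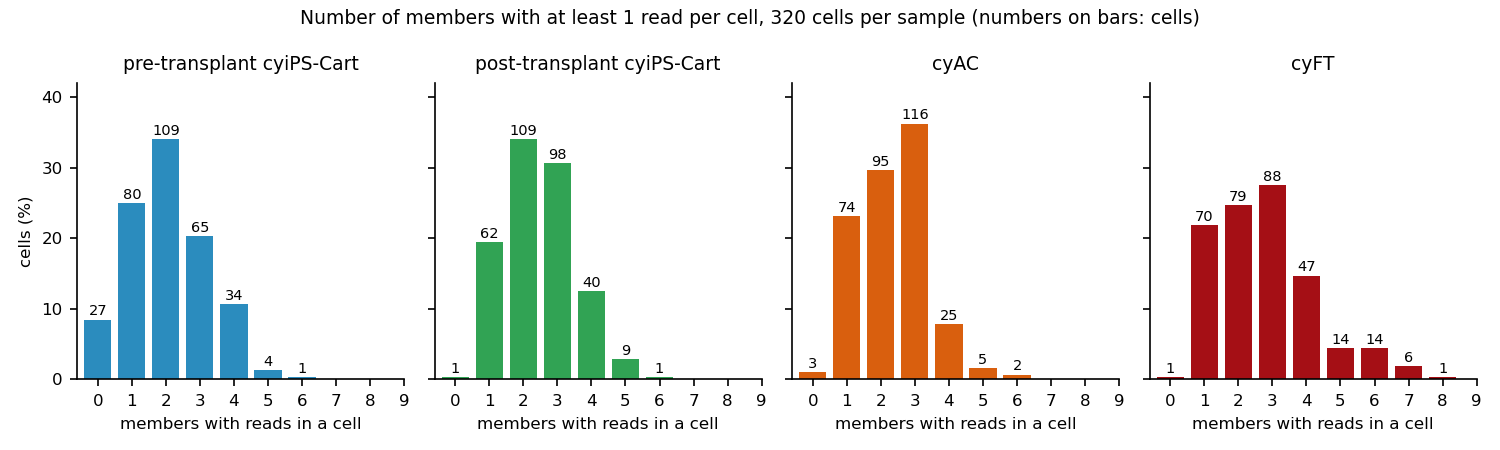
Share of cells (percent, with numbers of cells on the bars) by the number of members with reads in a cell, among 320 cells of each sample of the 4-sample matrix. The cyFT histogram alone extends to 7 and 8 members, with 6 cells and 1 cell, and 27 pre-transplant cells have none.

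The genes whose pattern over cells was most like that of a member were ranked by Spearman's rho over thinned cells of a sample, among genes with reads in at least 10% of them, and up to 5 with rho of at least 0.3 are given as a description. Cells of a sample share their library, and depth had been equalised. Over 288 cyFT cells, *IBSP* was most like *FGFBP2* (0.59), *CNMD*, which encodes chondromodulin (0.54), *EFHD1* (0.53), *COL2A1* (0.50) and *CPE* (0.50). *MEF2C* was most like *FRZB* and *FGFBP2* (0.41 each), *IBSP* (0.40), *CHAD* (0.39) and *CNMD* (0.37). *PTH1R* was most like *HAPLN1* (0.47), *SPARC* (0.45), *CHAD* (0.44), *FGFBP2* and *RBP4* (0.43 each), and *SPP1* like *FGFBP2* (0.44), *HAPLN1* (0.43), *SPARC* (0.42), *COL2A1* (0.40) and *COL9A1* (0.38). *FGFBP2* was the gene named beside all 4 of these members. *MGP* had other neighbours in cyFT, *PCOLCE* (0.43), *SCARA3* (0.39), *COL1A2* (0.37), *TNNT3* and *FMOD* (0.36 each). Outside cyFT few genes reached 0.3. For *MGP* these were *ECRG4* (0.41), *VIT* (0.36) and *ITM2B* (0.34) over 308 cyAC cells, and *PZP* (0.37), *COL5A2* (0.31) and *POSTN* (0.30) over 319 pre-transplant cells. For *SPP1* over 320 post-transplant cells it was *DCN* (0.31).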

How the data were processed

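The authors deposited 2 matrices of counts, whole numbers of reads per gene and cell. According to the study's methods, reads had been assigned with Bowtie2 (2.4.2 in the submitters' processing notes, with cutadapt 3.4 and R 3.6.3) to Ensembl cDNA and ncRNA of the crab-eating macaque. Cells above the inflection point of the read-count curve had been kept, cells with many mitochondrial reads removed, and, in genes with high maxima, low counts taken for diffused background set to 0. Reads per transcript sequence were counted, so paralogs that share sequence can share reads. The 3 hashtag libraries were not used, and cells were assigned to conditions by the tag in the cell name, as in the authors' code, since the labels do not pair tags with conditions. The members and lists were chosen with earlier results of these data known.

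Reads were summed per condition and scaled to CPM with numpy 2.4.6, pandas 2.3.3 and scipy 1.17.1, and drawn with matplotlib 3.10.9. Depth was 415457877 reads for cyiPSCs, 240368262 for the larger pre-transplant set, and 21293959, 29855420, 11825548 and 11087496 for pre-transplant, post-transplant, cyAC and cyFT cells of the 4-sample matrix. A pseudocount of 1 CPM, a filter of 5 CPM and 5% of cells in either sample, and a 2-fold threshold were used. All 10 members were named in every sample, and from 4 pathway lists (hedgehog and PTHrP axis, hypertrophic regulators and repressors, hypertrophic zone matrix and proteases, mineral deposition and its inhibitors) the genes past 2-fold. Cell types were checked with lists of chondrocyte, fibroblast, osteoblast, osteoclast, macrophage, pan-immune, endothelial, mural and pluripotency markers. Of the 6 osteoblast markers, 5 are also in the pathway lists. Thinning drew each cell to the 10th percentile of depth, leaving out 60 cyiPSCs and 353 pre-transplant cells in one matrix and 1 pre-transplant, 12 cyAC and 32 cyFT cells in the other. Scrublet in scanpy 1.11.5 marked 26 pre-transplant, 8 post-transplant, 2 cyAC and 2 cyFT cells; in the larger library it marked 14 cells (0.232%) and was not taken to have worked there. The alternatives were other pseudocounts and filters, means of per-cell CPM, TMM factors (edgeR 4.0.16 in R 4.3.3), mitochondrial genes, marked doublets or the top 3 cells left out (and, chosen after seeing the data, the top cell alone, and the top 3 within cells with *COL2A1* alone), other read minimums, and *MGP* left uncounted. The computation was tested on simulated data.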

Additional observations from a re-analysis of the deposited data

How the results depend on the processing

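No paired analysis was possible because each condition was 1 sample. No called value changed direction under any alternative run, and leaving out mitochondrial genes or marked doublets kept all 10 counts of members within 1.5 times. A filter of 50 CPM and 25% of cells left 1 member higher after transplantation (*MGP*), 3 higher in cyFT over cyAC and 3 lower in post-transplant cells than in cyFT (*MEF2C*, *SPP1* and *PTH1R* in both), and 0 higher in post-transplant cells than in cyAC or in cyFT. Of all genes tested at that filter, 278 of 3420 were higher after transplantation and 228 of 3260 higher in cyFT than in cyAC. In post-transplant cells 723 of 3383 were lower and 265 higher than in cyFT, and 348 of 3233 were higher than in cyAC. With no filter, 2 were lower after transplantation (*ALPL*, *SPP1*) and 1 lower than in cyAC (*IBSP*), beside 1951 of 12269 and 1937 of 12014 genes. *COL10A1* was then also higher after transplantation (log2 ratio 2.75) and in cyFT over cyAC (1.23), and lower in post-transplant cells than in cyFT (-1.77). *RUNX3* was then higher in pre-transplant cells than in cyiPSCs (1.15). All genes called in those directions were 1082 of 12269, 1658 of 12110, 2659 of 12045 and 1753 of 13920. TMM gave 5 higher after transplantation, and without the top 3 cells, or with the larger pre-transplant set, 0 were lower. Of all genes, 1084 of 8707 were higher under TMM. Without the top 3 cells 1970 of 8103 were lower, and with the larger set 1555 of 8689. Among cells with *COL2A1* alone and without the top 3 cells, chosen after seeing the data, 1 was lower in cyFT than in cyAC (*MGP*), beside 1455 of 7384 genes. A pseudocount of 0.1 CPM or means of per-cell CPM gave 2 higher over cyAC (*RUNX2*, *RUNX3*), beside 1012 of 8544 and 951 of 8556 genes. A pseudocount of 10 CPM gave 0 higher over cyFT, beside 313 of 8731 genes. Shares of cells with 2 or more members, in the order cyiPSCs, larger and smaller pre-transplant set, post-transplant, cyAC and cyFT, were 68.5%, 52.2%, 54.7%, 73.8%, 61.9% and 67.5% with at least 2 reads, 31.2%, 19.4%, 18.8%, 52.2%, 24.7% and 37.8% with at least 10 reads, and 56.4%, 58.1%, 40.4%, 63.4%, 59.4% and 71.9% after thinning. Without *MGP* they were 43.9%, 45.3%, 46.9%, 46.3% and 53.8% in the samples other than cyiPSCs. The cause of these differences was not tested beyond the construction of each alternative.

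Over all genes, 1559 were higher and 3619 lower in pre-transplant cells than in cyiPSCs, against 860 and 1801 with the 50 CPM filter, 2457 and 1858 under TMM, and 2331 lower with a pseudocount of 10. After transplantation 781 and 1588 became 392 and 830 with a pseudocount of 10 and 278 and 756 with the 50 CPM filter. For cyFT over cyAC 956 and 356 became 402 and 155, and 228 and 122, and with no filter 1658 and 690, and 692 were lower among cells with *COL2A1* alone, where without the top 3 cells 323 were higher and 1455 lower of 7384 tested. Post-transplant over cyAC went from 915 and 1323 to 434 and 761, and 348 and 574. Post-transplant over cyFT went from 595 and 1812 to 313 and 1047, and 265 and 723, and TMM gave 1010 higher. At 3 reads the limit on a level was 0.1005 to 0.271 CPM in the 4-sample matrix, so lower levels of *IHH* were not detectable.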
